A study of Homo sapiens and Mus musculus with 10 samples.

Results

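HEK293T is an established line derived from human embryonic kidney, and it expresses the large T antigen of SV40. Its accessible chromatin was described against that of 3 other human lines: GM12878, a B-lymphoblastoid line, HFF1, a foreskin fibroblast line, and K562, an erythroleukaemia line. A promoter counted as open in a library when a deposited peak fell within 1 kb of any GENCODE start site of a protein-coding gene on chromosomes 1 to 22 or X. By this rule, 67 of 19970 genes were open in both HEK293T libraries and in none of the 6 others, a share of 0.336%, and are called HEK293T-only. The reverse set, open in all 6 others and in neither HEK293T library, held 416 genes (2.08%) and is called HEK293T-closed. Away from promoters, 3997 of the 26085 distal regions shared by both HEK293T libraries (15.3%) overlapped no peak of the other 6.

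The series holds 10 bulk ATAC-seq libraries, 2 from each of 5 lines, and the 8 human ones are used here. In ATAC-seq, the Tn5 transposase cuts and tags DNA where chromatin is open, so peaks mark accessible sites. The labels give the name of the line and a replicate number, and no treatment or genetic change; all lines were grown in serum-containing medium. Nothing in them says that replicates came from separate cultures, so the spread between them may be technical. In bulk libraries, a site open in few cells and a site weakly open in all cells cannot be told apart.

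The HEK293T libraries were the shallowest. Their background, in reads per window, was 0.465 and 0.466, against 1.71 to 2.43 in the other 6, and their peaks numbered 52438 and 52137, against 71241 to 127359. The pileup at the median HEK293T peak was 16 reads, against 30 to 35. A missing HEK293T peak therefore rests on less evidence than a missing peak elsewhere, whereas a HEK293T-only peak stands against deeper libraries. All 12 reference genes, such as ACTB and GAPDH, were open in every library.

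In the embryo, kidney tubules form from intermediate mesoderm under PAX2 and LHX1, transcription factors that also act in developing neural tissue. The promoters of many such developmental regulators are rich in CpG, a dinucleotide that is depleted in most of the genome. ATAC-seq peaks at promoters show that DNA is accessible, and do not measure transcription.

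Both marker genes fixed for the line were HEK293T-only. The 5 promoter peaks below show the composition of the set, with each CG in capitals; bases inside exons were left out. They are read on the plus strand of hg38. The stretches lie at chr10:100745340-100745440, chr17:36936710-36936784, chr21:33025631-33025731, chr5:171309107-171309207 and chr5:152405280-152405378. The PAX2 and NMUR2 stretches fall in introns, near start sites internal to those genes, and the other 3 lie just outside the gene. Over the 1 kb around the canonical start site, the observed over expected CpG ratio was 0.755 for PAX2, 0.853 for LHX1, 0.714 for OLIG2 and 0.908 for TLX3. NMUR2, at 0.319, is shown as a CpG-poor contrast.
PAX2: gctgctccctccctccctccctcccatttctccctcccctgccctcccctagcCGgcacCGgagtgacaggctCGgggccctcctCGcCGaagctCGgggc
LHX1: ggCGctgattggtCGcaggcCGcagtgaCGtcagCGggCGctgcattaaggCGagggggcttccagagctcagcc
OLIG2: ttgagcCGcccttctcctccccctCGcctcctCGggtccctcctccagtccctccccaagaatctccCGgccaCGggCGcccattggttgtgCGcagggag
TLX3: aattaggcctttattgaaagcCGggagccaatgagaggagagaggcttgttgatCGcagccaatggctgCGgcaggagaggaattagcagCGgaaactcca
NMUR2: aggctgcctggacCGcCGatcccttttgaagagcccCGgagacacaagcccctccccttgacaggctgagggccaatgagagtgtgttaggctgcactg
The stretches hold 6, 7, 7, 4 and 3 CG dinucleotides in that order.

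The next sequences centre on summits of HEK293T-only distal regions, on the plus strand of hg38, and are examples chosen by rank and by consensus. They are the highest-ranked and second-ranked regions, 2 high-ranked regions with the ZIC consensus CAGCAGG, and, from lower in the ranking, a region with a CTCF consensus. Capitals mark any of the 20 consensus sequences searched. The SPAG16 stretch at chr2:213451713-213451813 lies in an intron of that gene. The others lie between protein-coding genes. The nearest gene is EPHA3 for chr3:89852157-89852257, NCAM2 for chr21:22843031-22843131, NECTIN3 for chr3:111012772-111012872 and TMPRSS15 for chr21:18951806-18951906.
SPAG16 region: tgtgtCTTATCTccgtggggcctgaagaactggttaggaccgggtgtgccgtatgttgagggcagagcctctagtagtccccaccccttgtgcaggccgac
EPHA3 region: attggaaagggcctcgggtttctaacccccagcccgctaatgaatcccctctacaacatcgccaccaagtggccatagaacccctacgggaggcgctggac
NCAM2 region: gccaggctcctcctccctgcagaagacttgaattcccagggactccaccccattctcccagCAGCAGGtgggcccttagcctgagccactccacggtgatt
NECTIN3 region: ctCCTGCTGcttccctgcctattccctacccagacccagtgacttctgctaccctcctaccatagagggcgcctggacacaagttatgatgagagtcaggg
TMPRSS15 region: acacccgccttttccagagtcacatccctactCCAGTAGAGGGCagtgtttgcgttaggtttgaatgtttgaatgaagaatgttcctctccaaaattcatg
The capitals mark a GATA consensus in the SPAG16 stretch, nothing in the EPHA3 stretch, ZIC in the NCAM2 and NECTIN3 stretches and CTCF in the TMPRSS15 stretch.

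By a grouping made after the values were seen, 20 of the 67 HEK293T-only promoters belonged to transcription factors, several of them known from embryonic patterning. No share of that class over all genes was computed. The values below are fold enrichments at the highest promoter peak, the authors' ratio of the summit to the background of its own library, in replicate 1 and replicate 2. They come from the same peaks as the rule and are given as a description. OLIG2, which specifies oligodendrocytes and motor neurons, had folds of 12.5 and 12.4. DMRTA2, a factor of the early cortex, had 10.8 and 10.8. PAX1, which acts in the sclerotome and pharyngeal pouches, had 10.6 and 12.2. In each of these the replicates lay close together, and no peak was listed in GM12878, HFF1 or K562.

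Other members of this class pattern quite different tissues. TLX3, a selector of excitatory spinal neurons, had 9.98 and 10.3, and PTF1A, a factor of pancreas and cerebellum, had 9.54 and 9.91. TBXT, the brachyury factor of early mesoderm and notochord, had 9.44 and 9.29, and CDX2, a factor of the intestine and the posterior embryo, had 9.89 and 8.90. HMX1 had 13.2 and 9.54, the widest gap between replicates among the named factors. HELT had 8.82 and 9.66, DLX5, a factor of craniofacial and limb skeleton, 9.72 and 8.57, and FOXB1, of the diencephalon, 8.28 and 8.16. The class thus spans neural, mesodermal and endodermal regulators, and both replicates of all 20 genes had a peak by the rule.

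The kidney markers sat in the lower range of the class. PAX2 (chr10, gene at 100735396 to 100829944) had folds of 7.66 and 7.01, and its summit lay 192 bp upstream of the canonical start site. LHX1 (chr17, gene at 36936785 to 36944612) had 5.05 and 6.24. Its summit lay 25 bp upstream of the nearest start site and 715 bp upstream of the canonical one. SOX3, a factor of neural progenitors, had 5.23 and 6.26, and NEUROD1, a factor of neuronal and endocrine differentiation, had 5.24 and 5.13. The SOX3 summit lay in an exon, 1071 bp inside the gene, and the NEUROD1 peak also overlapped the promoter window of CERKL. OVOL2, a repressor that maintains epithelial identity, had 9.09 and 6.63 and was the single HEK293T-only gene of the 27 epithelial genes.

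Adhesion and axon guidance genes held the 2 strongest promoters. CDH10, a type II cadherin of the brain, had folds of 15.8 and 15.8, the highest of the 67, with a summit 10 bp inside the first exon. PCDHA11, a clustered protocadherin, had 13.0 and 13.4; clustered protocadherins have near-identical copies, so its peak may hold misplaced reads. UNC5D, a netrin receptor, had 8.21 and 9.47, and DSC3, a desmosomal cadherin, had 8.53 and 9.43. This class held 11 genes with a median lower fold of 6.83, against 8.37 for the transcription factors, where the lower fold is the smaller of the replicate values.

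Enzymes formed a class of 11 genes, several of which add sugars to proteins or lipids. GALNT13, which starts O-linked glycans, had 12.3 and 11.2. FUT9, which makes the Lewis x epitope, had 10.7 and 11.7. UGT2B4 had 9.38 and 13.6 and UGT2B15 had 11.5 and 8.36, and both conjugate steroids and bile acids. Of the 7 UGT2B genes, 2 were HEK293T-only, against 0.336% of all genes. Another 4 were open in no human library, as were 2935 of all 19970 genes. The UGT2B genes are near-identical copies, and the UGT2B4 summit lay 30129 bp upstream of the canonical start, next to an alternative one. DDC, which makes dopamine and serotonin, was the single HEK293T-only gene of the 23 adrenal genes, at 5.31 and 5.57, also at an alternative start. DGKK, a diacylglycerol kinase, had 8.81 and 8.83, and MGAM, an intestinal maltase, 9.07 and 8.43 at an internal start.

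Receptors and channels numbered 13, many of them neuronal. NMUR2, a neuromedin U receptor, had 9.02 and 8.21, and GJB7, a connexin, had 10.2 and 8.28. GRIN2B, an NMDA receptor subunit, had 8.11 and 10.2, GABRA2, a GABA receptor subunit, 8.00 and 6.18, and HTR2C, a serotonin receptor, 7.76 and 8.07; these 3 are named outside the rule for named genes, after their values were seen. KLRC4 and KLRC4-KLRK1 shared 1 peak. Among the 6 secreted proteins, SMOC2, a matricellular protein, led with 10.6 and 9.55. C10orf82, which has no role given here, had 10.5 and 9.80.

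**Figure D1:**
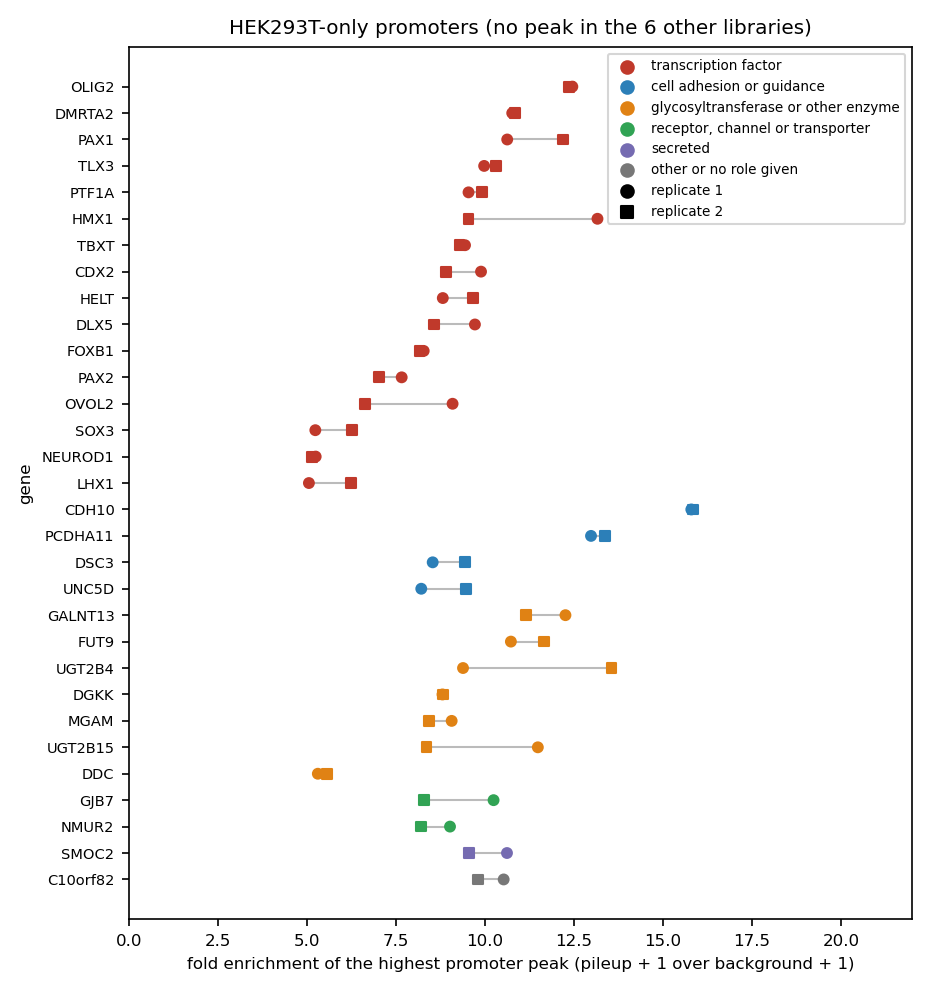
Fold enrichment of the highest promoter peak in each HEK293T library (x axis, linear) for 31 of the 32 named HEK293T-only genes (y axis), coloured by class, with circles for replicate 1 and squares for replicate 2. CDH10 lies at 15.8 in both replicates, and LHX1, NEUROD1, SOX3 and DDC lie lowest, between 5.05 and 6.26.

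Over all 67 genes, the lower fold ran from 3.72 to 15.8, with a median of 7.51. The summit lay outside the gene for 30, in an exon for 26 and in an intron for 11, and 57 peaks were within 1 kb of the canonical start site. In 5 cases the peak also overlapped the window of another protein-coding gene. At the edge of the rule, OSTN was the weakest member, with a smaller −log10 q of 2.15, followed by SPINK7 at 3.84 and IL17F at 4.46. PTCHD1, ARPP21 and OPRK1 fell just outside through 1 peak in 1 other library, with −log10 q of 2.12, 2.65 and 2.75. Another 57 genes were open in both HEK293T libraries and exactly 1 of the 6, and 26 in 1 HEK293T library and none of the 6. At the edge of the HEK293T-closed set, 366 genes were open in all 6 and in exactly 1 HEK293T library, nearly as many as the 416.

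The HEK293T-only promoters were CpG-rich about as often as those of all genes, whereas the line-only promoters of the other lines were so less often. Taking an observed over expected CpG ratio of at least 0.6 as rich, 46 of 67 (68.7%) were rich, against 24 of 280 GM12878-only promoters (8.57%), 121 of 409 HFF1-only promoters (29.6%) and 45 of 224 K562-only promoters (20.1%). The share over all genes was 66.3%, and over the 11916 promoters open in all 8 libraries (59.7% of genes) 87.9%. When all lines were thinned to HEK293T depth, an alternative chosen after seeing the data, the shares were 70.6%, 10.5%, 35.6% and 23.8% in that order. HEK293T thus had the highest share before and after thinning, and a permutation over 4 lines could not give a p below 0.25. The least CpG-rich members were DDC, KLRC4 and CRCT1, at ratios of 0.116, 0.126 and 0.156.

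Of the 20 consensus sequences searched, none occurred in more than 6 of the 67 promoter peaks. Within 50 bp on either side of the summit of replicate 1, the SP/KLF consensus GGGCGGGG occurred in 6 of the 67 (8.96%), against 17.8% of all 17835 promoter peaks of that library. The ETS consensus CCGGAAGT occurred in 0 of 67, against 3.03%. ZIC CAGCAGG occurred in 4 (5.97% against 4.99%), and NFY CCAATCA in 3 (4.48% against 4.10%), 1 of them in the LHX1 stretch printed above. The homeodomain consensus TAATTA occurred in 2 (2.99% against 0.219%). All were searched on both strands. A match is a description of letters and not a bound site.

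Genes of kidney development were partly open in HEK293T. Of 43 listed regulators of the nephric lineage, 32 and 33 were open in the HEK293T replicates, 23 and 20 in GM12878, 41 and 40 in HFF1, and 19 and 18 in K562. Over all genes, 69.8% and 69.5% were open in the HEK293T replicates, and the listed share lay near that (the plot of lists by library shows the percentages). HEK293T lay above both blood lines and below the fibroblasts. In the HEK293T-only set were 2 of the 43 (4.65%, against 0.336% of all genes), PAX2 and LHX1, which were fixed as markers of the line. Beside these, 8 genes were open in both HEK293T and both HFF1 libraries and in no GM12878 or K562 library: SALL1, HOXD11, GFRA1, GDNF, FGF20, SIM1, POU3F3 and IRX3. The share of all genes with this pattern was not computed, so the 8 are given as a description. SIM1, a factor of the hypothalamus and the nephric duct, had folds of 11.2 and 12.5 in HEK293T and 8.97 and 9.44 in HFF1. GDNF, the ligand that draws out the ureteric bud, had 9.62 and 9.35 in HEK293T and 5.02 and 4.96 in HFF1. Its receptor RET was open in all 8 libraries.

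Some of the best-known kidney regulators were not open in HEK293T. PAX8, which acts with PAX2 in the nephric lineage, had no HEK293T peak and had folds in the other 6 from 7.88 to 13.0, with a median of 9.85; it remained closed after thinning. FOXC1, HOXC11, GREM1, IRX1 and IRX2 had no HEK293T peak either and were open in both HFF1 libraries. Of 30 genes of mature nephron segments, 14 were open in each HEK293T replicate, within the 14 to 18 of the other libraries. The share open in both HEK293T libraries was 46.7%, below the 69.8% and 69.5% of all genes open in the replicates. In the HEK293T-only set were 0 of the 30, against 0.336% of all genes. LRP2, the endocytic receptor megalin of the proximal tubule, had folds of 6.39 and 7.80 in HEK293T and missed the set through a peak of 4.98 in 1 K562 library. Of the kidney genes, PAX2 and LHX1 were thus HEK293T-only and PAX8 was HEK293T-closed. The 8 shared with HFF1 and not with the blood lines have no share over all genes to stand against.

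The neuronal list stood as high as the kidney list. Of 38 neuronal genes, 31 and 32 were open in HEK293T, 18 and 18 in GM12878, 29 and 28 in HFF1 and 21 and 19 in K562, so HEK293T had the highest count. Of the list, 78.9% was open in both HEK293T libraries. Over all genes, 69.8% and 69.5% were open in the HEK293T replicates. In the HEK293T-only set were 4 (10.5%, against 0.336% of all genes), among them OLIG2, SOX3 and NEUROD1. The list was made with earlier results of these data known, so this share is only a description. NEUROG1, a proneural factor, had folds of 13.8 and 12.2 in HEK293T and a peak of 3.17 in 1 HFF1 library, and NKX2-2, of the ventral spinal cord, had 11.6 and 9.63 and a peak of 2.65 in 1 HFF1 library. Both missed the set through that peak. TUBB3, a neuronal tubulin, was HEK293T-closed with folds from 3.66 to 4.23 in the other 6, but was not closed after thinning. SOX1 and DCX were open in no library. Of the 9 PAX genes, a family chosen after the values were seen, PAX1, PAX2 and PAX7 were HEK293T-only and PAX8 was HEK293T-closed.

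**Figure D2:**
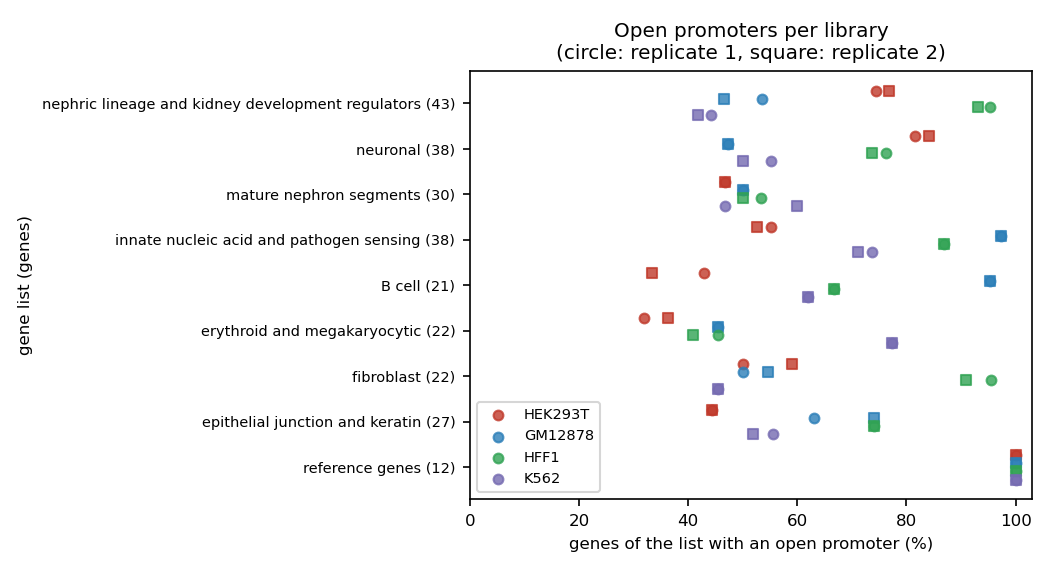
Share of each gene list with an open promoter (x axis, percent) in each of the 8 human libraries, coloured by line, with the number of genes of the list in brackets on the y axis. HEK293T lies highest for the neuronal list, between HFF1 and the blood lines for the kidney list, and lowest for the innate sensing list.

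Several innate immune sensing genes were HEK293T-closed. Of 38 sensing genes, 21 and 20 were open in HEK293T, against 37 and 37 in GM12878, 33 and 33 in HFF1 and 28 and 27 in K562. The share open in both HEK293T libraries was 50%, below the 69.8% and 69.5% of all genes open in the replicates. HEK293T-closed were 7 (18.4%, against 2.08% of all genes): STING1, TLR1, TLR2, TLR6, TICAM1, IFI16 and NLRP1. The B cell list had a similar share, 4 of 21 (19.05%). Both lists were made with earlier results of these data known, so these shares are only a description. TLR1 and TLR6 had the same folds except in K562 replicate 1, at 5.93 and 5.88, so their closed states are not separate observations. After the other libraries were thinned to HEK293T depth, 6 of the 7 were closed and TLR2 was not. The toll-like receptors sense microbial products at membranes, and TICAM1 encodes TRIF, an adaptor that only some of them use. MYD88, the gene of another adaptor, was open in all 8 libraries, with folds of 15.6 and 16.6 in HEK293T. STING1 relays the signal of cytosolic DNA, with folds in the other 6 from 6.11 to 9.18 and a median of 6.78. IFI16, a nuclear DNA sensor, had 5.70 to 13.1 with a median of 11.6, and NLRP1, an inflammasome sensor, had 8.30 to 13.9 with a median of 10.1. CGAS, the enzyme upstream of STING1, had no peak in HEK293T or K562 and folds of 7.66 and 7.66 in GM12878 and 11.6 and 11.2 in HFF1. The RNA sensing genes RIGI and MAVS were open in all 8, and TLR3 was open in both HEK293T libraries, so the closed state did not cover the whole list.

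Other gene lists, among them those of antigen presentation and of cell lineages, added single genes. By the rule, each was open in all of the other 6 libraries, so none marked a single line here. TAPBP, the tapasin of the peptide-loading complex, had folds from 3.85 to 5.44 in the other 6, and ERAP2, a peptide-trimming protease, from 3.99 to 17.9. Both were closed in HEK293T before and after thinning. Of 15 class I genes, 12 (80%) were open in both HEK293T libraries, where 69.8% and 69.5% of all genes were open in the replicates. ICAM1, an adhesion receptor, had 5.83 to 8.97 and was also closed both ways. PDGFRB, a growth factor receptor of fibroblasts, and IKZF3, a lymphoid factor, were closed both ways. CD74, CD40, FCRLA, LYL1, TBX15, CLDN7, GRHL2 and STAR were closed in the deposited lists and not after thinning. LHX3 and HOXA6, HOXB5, HOXC6 and HOXC9 were HEK293T-closed members of families chosen after their values were seen.

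The strongest HEK293T-closed promoters belonged to no list. ZNF253, a zinc finger gene of chromosome 19, had no HEK293T peak and folds in the other 6 from 13.0 to 14.7, with a median of 13.5. ZNF433 had 11.9 to 14.2 and ZNF347 had 10.0 to 13.2, and 11 of 249 zinc finger genes of chromosome 19 were HEK293T-closed, 8 after thinning; of all 1476 genes of that chromosome, 56 (3.79%) were, a share close to that of the family. HMSD had a lowest fold of 11.9 and a median of 13.5, RNF212B, a meiotic recombination gene, 11.2 to 18.8, and NAP1L5, an imprinted gene, 10.1 to 16.6. SHFL, an antiviral inhibitor of frameshifting, had 10.3 to 13.0, and GALC, the lysosomal enzyme lost in Krabbe disease, had 10.00 to 10.8. PSMD5, a proteasome assembly chaperone, had 9.39 to 16.8 and DOCK2, a guanine exchange factor of blood cells, had 9.25 to 13.8. All of these were also closed after thinning.

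The same range held AGBL2 at 9.91 to 17.1, PLSCR2 at 9.46 to 12.1, RCN3 at 9.40 to 12.7, LEKR1 at 9.23 to 13.2, ZNF785 at 9.93 to 14.7 and ZNF93 at 9.14 to 14.5, all closed both ways. TIMM23 had 12.3 to 15.5 and POLR2J had 11.1 to 15.5, and both have near-identical copies elsewhere in the genome. MAP10 had 9.84 to 14.1. The unnamed gene ENSG00000260851, at 10.6 to 12.1, shared its peak with the window of TK2. POLR2J and MAP10 were the 2 of the 20 genes with the highest lowest fold that were not closed after thinning.

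Both promoter sets changed in size with the depth of the other lines. When pileups of the other 6 were thinned to the HEK293T background, the HEK293T-closed genes fell from 416 to 169, and the HEK293T-only genes rose from 67 to 194. Thinning the others can remove their peaks but add none, so no HEK293T-only gene could be lost and no HEK293T-closed gene gained. The lowest of the 6 folds had a median of 4.99 over the 416, against 8.50 over the 11916 promoters open in all 8. It was 6.06 over the 169 that remained and 4.41 over those that did not. With the 40000 strongest peaks of each library, HEK293T-only genes numbered 456 and HEK293T-closed genes 244.

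Against the same counts for the other lines, HEK293T moved from the fewest line-only promoters to a middle place. In the deposited lists, GM12878 had 280 line-only promoters (1.40%), HFF1 409 (2.05%) and K562 224 (1.12%), against 67 in HEK293T. After all were thinned to the HEK293T background, the numbers were 296, 250 and 143 against 194. For closed promoters the deposited numbers were 265 (1.33%), 66 (0.33%) and 344 (1.72%) against 416, and after thinning 187, 105 and 360 against 169. K562 then had the most closed promoters. Thinning matched the background and not the peak numbers, which became 46601 and 45666 in K562, against 52438 and 52137 in HEK293T. In GM12878 and HFF1 they lay between 74461 and 76788. Genes with an open promoter numbered 13174 and 13175 in thinned K562, against 13942 and 13886 in HEK293T. The part of this in the K562 counts was not tested.

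**Figure D3:**
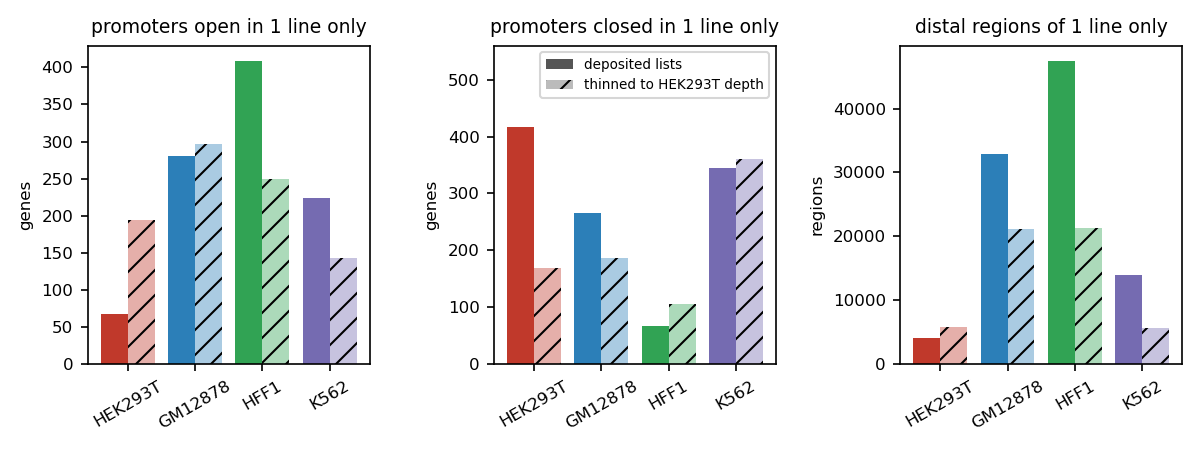
Number of promoters open in 1 line only, promoters closed in 1 line only and distal regions of 1 line only (y axes from 0), for the deposited lists (solid) and after thinning to HEK293T depth (hatched). HEK293T goes from 67 to 194 line-only promoters and from 416 to 169 closed ones.

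The number of protein-coding genes with an open promoter was 13942 and 13886 in HEK293T and 14270 to 15558 in the other 6. The HEK293T mean of 13914 ± 39.6 (SD, n = 2) lay below the mean of 14833 ± 523 (SD, n = 6), but the exact permutation test over 28 splits gave p = 0.0714, two-sided, and the direction turned with the 40000 strongest peaks per library (458 genes more in HEK293T, exact permutation p = 0.0714). Among the 20000 strongest peaks, the promoter share was 51.0% and 51.3% in HEK293T, inside the range of 46.5% to 54.5% in the other 6 (exact permutation p = 0.714, two-sided). Over all peaks, the share was 11.5 percentage points higher in HEK293T (exact permutation p = 0.0357, the smallest the 28 splits allow). The difference over all peaks was thus not found at equal list length. These tests take the 8 libraries as units, although the 2 of each line are not independent. A permutation over the 4 lines could give no p below 0.25.

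The HEK293T-only distal regions lay farther from genes than the line-only regions of the other lines. The 3997 HEK293T-only regions had a median distance of 84234 bp to the nearest protein-coding start site, against 23557.5 bp for GM12878-only, 29883 bp for HFF1-only and 22373.5 bp for K562-only regions. More than 500 kb away were 628 of them (15.7%), against 4.27%, 2.46% and 2.90%. After thinning of all lines the shares were 13.3%, 3.66%, 2.25% and 3.03%, and among the 1000 regions of highest lower fold in each line they were 19.3%, 7.6%, 4.5% and 5.0%. HEK293T was the highest under each of these 3 ways of counting. The number of regions rested on the rule that both replicates agree: with replicate 1 or replicate 2 left out it rose to 7026 or 7311. Of the 3997, 61.8% lay between protein-coding genes, 36.2% in their introns and 2.00% in their exons.

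The strongest distal regions were spread over many chromosomes. The highest-ranked lay at chr2:213451421-213452088, in an intron of SPAG16, with folds of 18.6 and 18.9. The second, at chr3:89852048-89852337, had 21.5 and 17.8 and lay 744531 bp from the start of EPHA3, an ephrin receptor. Rank 3 lay at chr14:106334874-106335342, with folds of 18.1 and 17.7 and TMEM121 as the nearest protein-coding gene at 807923 bp. Genes of other types were not searched, so this distance does not show a stretch without genes. Rank 4 lay at chr21:22842946-22843493, with 17.2 and 17.2 and the neural adhesion gene NCAM2 nearest at 1379340 bp. The sequences at SPAG16, EPHA3 and NCAM2 were printed above.

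The next ranks lay at mixed distances from protein-coding start sites. Rank 5 lay near NECTIN3, at 57249 bp, and ranks 6 to 8 lay in introns of FAT3, SORBS2 and DOCK1. Rank 9 lay near KRTAP15-1, at 4118 bp. Rank 10 lay far from its nearest gene, PIK3C3, at 1541853 bp. Nearest genes include cell adhesion genes in several cases, but the nearest gene of a region in a gene-poor stretch need not be its target.

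The genes nearest to the most HEK293T-only regions were of mixed kinds. PCDH9, a protocadherin of neurons, was nearest to 52 HEK293T-only regions, with a median lower fold of 5.97. GPC5, a glypican, was nearest to 28, SPRY2, an inhibitor of growth factor signalling, to 21, TENM3, a teneurin of synaptic wiring, to 21, AGBL1 to 20, and SLITRK5, a synaptic adhesion protein, to 18. CNTNAP2, a neurexin-like protein, and NR2F2, an orphan nuclear receptor, each had 16, and ARRDC4, KLHL1, NCAM2 and SLITRK1 each had 15. Of these 12 genes, 6 are on chromosome 13. The promoters of 10 of the 12 were open in both HEK293T libraries, where 69.8% and 69.5% of all genes were open. None of the 12 was HEK293T-only, against 0.336% of all genes. NCAM2 had promoter folds of 16.5 and 14.3 in HEK293T, 0 in GM12878, 6.22 and 5.92 in HFF1, and 8.04 and 10.4 in K562. SLITRK1 had 13.2 and 12.7 in HEK293T, 10.3 and 8.42 in GM12878, and no peak in HFF1 or K562.

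HEK293T-only promoters and HEK293T-only distal regions tended to share genes. Of the 67 HEK293T-only genes, 28 (41.8%) were the nearest gene of at least 1 such region, against 10.1% of all genes, 9.09% of those open in all 8 and 4.09% of the HEK293T-closed. FZD10, a Wnt receptor, had 5 regions, and CDH10 and HMX1 had 4 each. PAX2 had 1 and LHX1 had 0. Both sets come from the same peak lists, so no test of this overlap is given.

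Chromosomes differed widely in the share of HEK293T distal regions that were HEK293T-only. It was 36.1% on chromosome 13 (371 of 1029), 25.4% on chromosome 4, 25.2% on chromosome 21 and 20.7% on X, and 4.25% on chromosome 19. The 20 fullest windows of 5 Mb held 15.7% of HEK293T-only regions and 5.57% of HEK293T distal regions, and 7 of these 20 were on chromosome 13. They had a median of 11 protein-coding start sites, against 24 over all such windows. The fullest, from 65000001 to 70000000 on chromosome 13, held 59 HEK293T-only regions, and 130 and 132 HEK293T peaks against 75 and 83 in GM12878, 23 and 21 in HFF1 and 38 and 34 in K562.

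Relative read depth also differed between these chromosomes, though not in the order of the shares. At distal regions present in all 8 libraries, the median log2 pileup of HEK293T minus the others, each library centred on its own median, was 0.18 on chromosome 13, 0.34 on chromosome 4, 0.35 on chromosome 21 and 0.44 on X, and -0.58 on chromosome 19. It was 0.28 on chromosome 5 and 0.20 on chromosome 10, where 17.6% and 18.9% of HEK293T distal regions were HEK293T-only. On X the centred pileup was 0.15 and 0.12 in HEK293T, and -0.53 and -0.52 in HFF1. In K562 the centred pileup on chromosome 13 was -0.42 in both libraries. HEK293T and K562 are known to be aneuploid, as background, and the part of chromosome copy number in these shares was not tested.

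**Figure D4:**
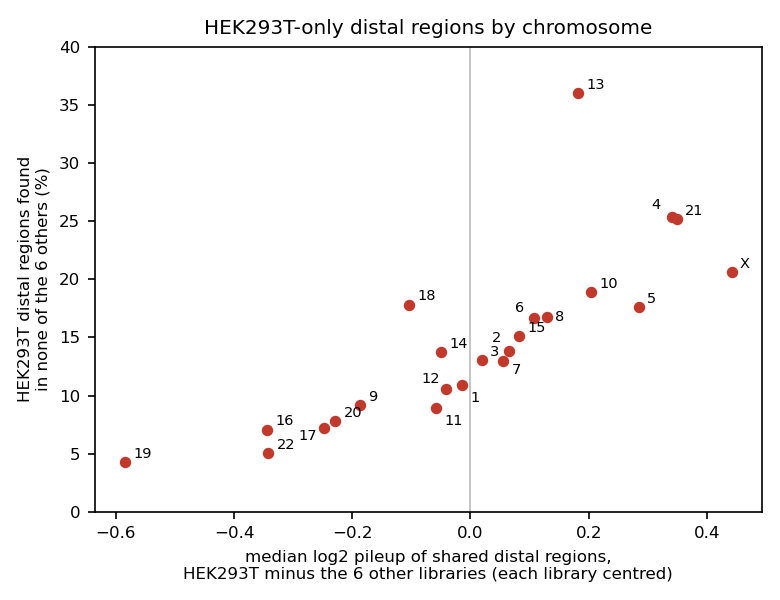
Share of HEK293T distal regions found in none of the 6 other libraries (y axis, percent) against the median log2 pileup of shared distal regions, HEK293T minus the 6 others (x axis), for chromosomes 1 to 22 and X. Chromosome 19 lies lowest at 4.25%, and chromosome 13 highest at 36.1%.

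Consensus sequences at distal peaks were compared over the 20000 strongest distal peaks of each library, in 50 bp on either side of the summit and on both strands. The permutation tests take the 8 libraries as units, although the 2 of each line are not independent. Over the 4 lines, no p below 0.25 would be possible. AP-1 sites, bound by FOS and JUN proteins, were found in 3.52% and 3.45% of HEK293T peaks, against 8.87% to 22.6% in the other 6. The groups did not overlap, which also held for RUNX, IRF, CTCF, TAATTA, octamer, ZIC, PAX2/5/8, HNF4 and p53 among the 20 searched. For AP-1, the exact permutation test gave p = 0.0714 and an adjusted p of 0.179 (Benjamini-Hochberg over 20 consensus sequences). The AP-1 subunit genes themselves were mostly open: 13 of 14 (92.9%) in each HEK293T library, against 13 or 14 elsewhere. Over all genes, 69.8% and 69.5% were open in the HEK293T replicates. RUNX, TGTGGTT, was found in 2.22% and 2.16% against 2.51% to 5.63% (exact permutation p = 0.0714, adjusted p = 0.179). CTCF, the insulator protein, was found in 11.8% and 12.2% against 5.70% to 10.1% (exact permutation p = 0.0714, adjusted p = 0.179).

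ZIC CAGCAGG, whose letters also occur inside many CTCF sites, was found in 10.3% and 10.2% of HEK293T peaks, against 6.48% to 9.42% (exact permutation p = 0.0357, adjusted p = 0.179). Among peaks without a CTCF consensus, a restriction added after seeing the data, it was found in 9.22% and 9.06% against 5.80% to 8.19% (exact permutation p = 0.0357, not adjusted). The p53 consensus, by name, was found in 3.19% and 3.17% against 2.50% to 3.03% (exact permutation p = 0.0357, adjusted p = 0.179). The PAX2/5/8 core GCGTGAC was rarer in HEK293T, at 0.550% and 0.510% against 0.585% to 0.775% (exact permutation p = 0.0357, adjusted p = 0.179), although PAX2 was HEK293T-only. None of the 20 passed after adjustment, and ZIC, p53 and PAX2/5/8 were the 3 that reached the smallest unadjusted p. The consensus read backwards gave 0.310% and 0.335% for ZIC in HEK293T, but that form holds a CpG that the ZIC consensus lacks, so it is a poor background for it. For PAX2/5/8 it gave 0.905% to 0.985%.

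The HEK293T-only regions alone had another composition. In the 3997 regions, ZIC was found in 355 (8.88%), the forkhead consensus TGTTTAC in 200 (5.00%, against 1.08% for its reverse) and p53 in 4.75%, whereas CTCF was found in 2.35% and AP-1 in 3.08%. Much of the forkhead and p53 share came from recurrent sequence. Grouping regions that share 20 identical bases within 100 bp on either side of the summit put 439 of the 3997 into 5 families of at least 10 regions, the largest with 180. This grouping was added after seeing the data. Among the 3997 strongest line-only regions, such families held 100 in GM12878, 28 in HFF1 and 529 (13.2%) in K562. In the largest HEK293T family, 73.3% of regions held the forkhead consensus and 42.8% the p53 consensus. In all others, 1.78% and 2.96% did, against 8.93% for ZIC. Reads from near-identical copies can be placed at the wrong one, and the handling of such reads is not given in the sources used here. Without the regions of any recurrent family, 3558 HEK293T-only distal regions remain, with a median distance of 85242.5 bp.

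**Figure D5:**
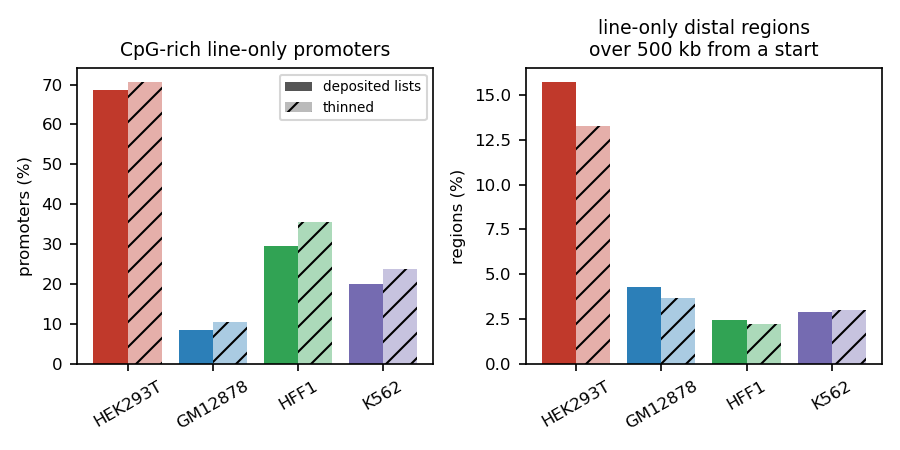
Share of line-only promoters that are CpG-rich and share of line-only distal regions over 500 kb from a start site, for the deposited lists (solid) and after thinning (hatched) (y axes in percent, from 0). HEK293T is highest in both panels, at 68.7% of promoters and 15.7% of regions in the deposited lists. The CpG-rich share over all genes, not drawn, was 66.3%.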

How the data were processed

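Bulk ATAC-seq peak lists of 8 human libraries (HEK293T, GM12878, HFF1 and K562, 2 each) were used, and the 2 mouse libraries were not. Per the submitters' processing notes, the tools were cutadapt 3.2, Bowtie2 2.4.2, Picard and MACS2 2.2.7.1, with build hg38; read shift and the filter for reads with several placements are not given in the sources used here. The authors deposited 1 list per library, with a fold (the ratio of summit to background), a −log10 p, a −log10 q and a score per peak; each belongs to its peak and was used only to describe, rank or filter within a list. Every listed q was at or below 0.01.

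Promoter windows were 1 kb on either side of every protein-coding start site of GENCODE release 44, and 1 bp of overlap made a promoter open. Distal regions are overlapping HEK293T peaks merged across both replicates, with a peak of each, outside all promoter windows; HEK293T-only ones overlap no peak of the other human lines. Whole-number pileups and backgrounds solved fold and −log10 p for 100% of peaks; depth is given as that background. Thinning drew each pileup down to the HEK293T background of 0.465 and kept peaks with −log10 p of at least 4.18. Shares of consensus sequences were tested with an exact two-sided permutation over 28 splits of 8 libraries (16 within replicate numbers). Libraries of 1 line are not independent of each other, and over the 4 lines the smallest p is 0.25. Analyses used Python 3.11.15, numpy 2.4.6, pandas 2.3.3 and scipy 1.17.1, and the set rules, pileup recovery, consensus search and permutation were tested on simulated data.

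Named genes were the 25 HEK293T-only genes of highest lower fold, the 20 HEK293T-closed genes of highest lowest fold, list members in either set, the 10 strongest distal regions and the genes nearest to most regions; PAX2 and LHX1 were always named. Members and lists were chosen with earlier results of these data known. Gene classes, families and the grouping by recurrent sequence were chosen after their values were seen. A few genes and sequences are not reported here.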

Additional observations from a re-analysis of the deposited data

How the results depend on the processing

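The numbers of HEK293T-only promoters, HEK293T-closed promoters and HEK293T-only distal regions stayed within 1.5 times under windows of 500 bp and 2 kb, canonical start sites, −log10 q of at least 5, an overlap of 100 bp and the summit rule. With 40000 peaks per library, HEK293T-only promoters numbered 456 and HEK293T-closed promoters 244, and with the other libraries thinned 194 and 169; fewer peaks or reads in the other libraries are how both were built. Leaving out each library gave 69 to 88 HEK293T-only promoters, 431 to 614 HEK293T-closed promoters and 4110 to 7311 HEK293T-only distal regions, and for the closed promoters and the distal regions the highest 2 values were those without a HEK293T replicate. Of the 32 named HEK293T-only genes, 26 kept that state with the 2 kb window, and thinning the other libraries could remove none; of the 42 named HEK293T-closed genes, 36 did with the 2 kb window, 30 under thinning and 25 with 40000 peaks. The promoter share of peaks was 11.5 points higher in HEK293T over all peaks, against 1.40 among the 20000 strongest. The number of genes with an open promoter was 458 higher in HEK293T with 40000 peaks per library, against a difference of -919 over all peaks; the cause was not tested.

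No consensus passed adjustment under any alternative, which says nothing about stability, since the smallest p was 0.0357 over 28 splits and 0.143 with a HEK293T replicate left out. Small differences changed sign over all distal peaks for ETS (0.0038 points), REST (-0.024) and NFI (-0.0049), and with 10000 peaks for SP/KLF (-0.15) and NFI (-0.0083). With a library left out, the differences ranged as follows where a sign changed: SP/KLF -0.16 to 0.35, REST -0.0085 to 0.025, SOX -0.062 to 0.014, NFI -0.0058 to 0.0092 and TEAD -0.32 to 0.19; the cause was not tested.

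Same-numbered libraries of different lines did not deviate together (correlations of -0.0051 to 0.022 over 11916 genes), so numbers pair no samples. With the replicate block, the smallest p is 0.0625, and the tests gave p = 0.125 for genes with an open promoter, p = 0.75 for the promoter share and 0 consensus sequences past the threshold (exact permutation). Depth limits both promoter sets, and missing HEK293T peaks could not be told from peaks below detection at a background of 0.465 reads per window.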
